A study of Xenopus laevis with 59 samples.

Results

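The transcripts described here encode nucleolar proteins and ribosome biogenesis factors of *Xenopus laevis*, the African clawed frog. They were chosen by symbol alone: in lower case and without the .L or .S ending, a symbol had to start with nop, utp, rrp or nol and a digit, start with polr1, or be fbl, ncl, dkc1, gar1, nhp2, bop1, pes1, wdr12 or ubtf. Of the 32291 transcripts with a count, 68 matched. *X. laevis* is an allotetraploid that carries many of its genes as homeologs, an L copy and an S copy, and the 68 transcripts belong to 44 genes, of which 24 were measured as both copies and 20 as 1. By the role assigned here, 25 belong to 40S assembly (the small subunit processome and the factors around it), 19 to 60S assembly, 8 to RNA polymerase I and its factor UBF, 6 to box C/D small nucleolar ribonucleoproteins (snoRNPs), 6 to box H/ACA snoRNPs and 2 to nucleolin. The roles were assigned by symbol and not tested, and nol7.L was counted with 60S assembly. The 2 copies of nol4 share only the symbol prefix.

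The nucleolus is where RNA polymerase I transcribes the ribosomal RNA genes and where the precursor RNA is modified, cleaved and packed into ribosomal subunits. Box C/D snoRNPs guide 2′-O-methylation of rRNA and box H/ACA snoRNPs guide pseudouridylation, the small subunit processome builds the 40S subunit on the nascent precursor, and other sets of factors mature the 60S subunit. Amphibian oocytes amplify their ribosomal DNA early in oogenesis into extrachromosomal nucleoli inside the large nucleus (the germinal vesicle), which sits in the animal hemisphere of the full-grown oocyte, and store ribosomes for the embryo. What was measured here is the RNA that encodes the proteins of this machinery, not rRNA, which had been depleted from the libraries.

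The data comprise 12 untreated oocytes in 4 size classes. The 3 very small oocytes (560 to 580 µm in diameter, stage III) came from female 2, whereas the 5 small (720 to 810 µm, stage IV), 2 medium (1050 µm) and 2 big (1140 and 1200 µm) oocytes came from female 1. The paper places the medium and big classes in early and late stage V, while the series description calls them stage V and VI. For TOMO-Seq, an oocyte was sliced along its animal-vegetal (A-V) axis. The slices were pooled in order into sections A (extremely animal) to E (extremely vegetal), and every section gave 1 library. Section A of very small oocyte 1 was not analysed here, which leaves 59 libraries. A difference between small and very small oocytes cannot be told apart from a difference between the females. Within a class the replicates are oocytes of 1 female. The p-values therefore carry nothing about the spread between animals.

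The libraries held 1014060 to 7356435 counts (median 3617724) and the oocytes 14136256 to 27837206. Oocyte markers such as gdf9, npm2 and zar1, 18 of 18 tested, summed to 2110.0 to 2264 CPM in the very small, 2045 to 2348 CPM in the small, 1843 to 1994 CPM in the medium and 1900.1 to 1910.4 CPM in the big oocytes (CPM, an oocyte's count scaled by its total and its TMM factor, so that it is relative to the other RNA). Markers of stroma and theca, 17 of 21 tested, summed to 13.0 to 68.7, 10.5 to 243, 269.8 to 395 and 307 to 350.4 CPM in the same order of classes. Those of granulosa and follicle cells, 8 of 23 tested, summed to 13.9 to 28.2, 20.6 to 59.2, 40.7 to 49.5 and 52.9 to 60.9 CPM, and those of blood and endothelium, 5 of 19 tested, summed to 20.005 to 26.2, 11.9 to 30.9, 30.0 to 39.0 and 48.6 to 63.2 CPM. The stroma and theca sums of all medium and big oocytes lay above those of all smaller ones, and the part of somatic RNA in the differences below was not tested. In the very small oocytes 2 of the 23 granulosa and follicle markers (cyp11a1.S and star.L), 4 of the 19 of blood and endothelium (hba1.S, hbg1.S, alas2.S and ptprc.S) and 1 of the 21 of stroma and theca (dcn.S) were at 0, and the others were detected. Single markers ran the other way, with amh.S at a mean of 3.27 CPM in the medium and big and 13.4 CPM in the very small oocytes, and kdr.L at 6.63 CPM and 11.9 CPM. One library stood apart: section B of small oocyte 3 drew 0.758% of its counts from the nucleolar transcripts, against 0.536% to 0.658% in the 58 others. There, 15 of the 63 members measured were more than 1.5-fold above the mean of section B of the other small oocytes, while 9.4% of all transcripts were. So were 35 of 148 other ribosome biogenesis genes (described below), 4 of 9 polymerase III and 3 of 19 polymerase II subunits. Of the ribosomal protein transcripts, 15 of 87 mitochondrial and 16 of 106 cytosolic ones were, and 22 of the cytosolic ones were more than 1.5-fold lower. The departure of this library was thus not particular to the nucleolar transcripts. Calls on totals that were lost without this library are named below, whereas sums and most levels are given only with it. In these bulk libraries fewer cells of a type and less RNA per cell cannot be told apart, and CPM is relative to the TMM-scaled library, not an amount per oocyte.

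As a group, the nucleolar transcripts took up 0.5598% to 0.6215% of the unscaled counts, lowest in a very small and highest in a medium oocyte. Their summed level was 5557 to 5740.2 CPM in the very small, 5719 to 6022 CPM in the small, 6062 to 6233 CPM in the medium and 6021 to 6128 CPM in the big oocytes. The ranges of the small and very small oocytes overlapped. Those of the big and small oocytes overlapped only through small oocyte 3 (6021.8 CPM, against 6020.7 CPM in big oocyte 2), whose section B library stood apart. Those of the medium and small oocytes did not overlap in CPM. As a percentage of the unscaled counts they did, with 0.5688% to 0.606% in the small and 0.5979% to 0.6215% in the medium oocytes. In both measures every medium and big oocyte lay above every very small one, where the females differ as well. The sums were not tested. Testing required that the scaled totals of the 12 oocytes averaged over 20 counts, and 64 of the 68 met this. Not tested were rrp12.L (0 to 9 counts per oocyte), nop56.S (6 to 40), nol4.L (0 to 3) and nol4.S (0 to 8). For the 64, the highest of the 12 oocyte levels was a median of 1.26 times the lowest, and 56 of them (87.5%) stayed under 1.5 times. Over all 19059 transcripts tested the median was 1.41 and 58.0% stayed under 1.5 times, at a lower median total (582 counts per oocyte, against 1257 for the nucleolar transcripts).

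Single members did differ between the size classes. Between small and very small oocytes, 19 of 64 (29.7%) passed an FDR under 0.1 in edgeR's quasi-likelihood test with Benjamini-Hochberg adjustment over all transcripts, 10 of them higher and 9 lower in small oocytes. Of all transcripts 43.2% passed, 21.5% higher and 21.7% lower. Between the medium and big oocytes, averaged, and the small oocytes of the same female, 21 of 64 passed, 11 higher and 10 lower in the medium and big oocytes. The background there was 16.4%, with 6.18% higher and 10.2% lower. These backgrounds were not matched for total count, which had a higher median among the members (1257, against 582 counts per oocyte for all transcripts). The median log2 change of the members was 0.03 in the first comparison and 0.02 in the second, against 0.01 and -0.0031 for all transcripts, and 58 and 59 of the 64 differed by less than 1.2-fold, against 66.2% and 85% of all transcripts. Over both comparisons and the last growth step together (any stage), 30 members passed, and 49.8% of all transcripts did. The levels of all oocytes of 1 class lay apart from those of the other for 17 members between small and very small oocytes (36% of all transcripts) and for 14 between the medium and big and the small oocytes (11.6%). The comparisons share the small oocytes and are not independent.

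**Figure D1:**
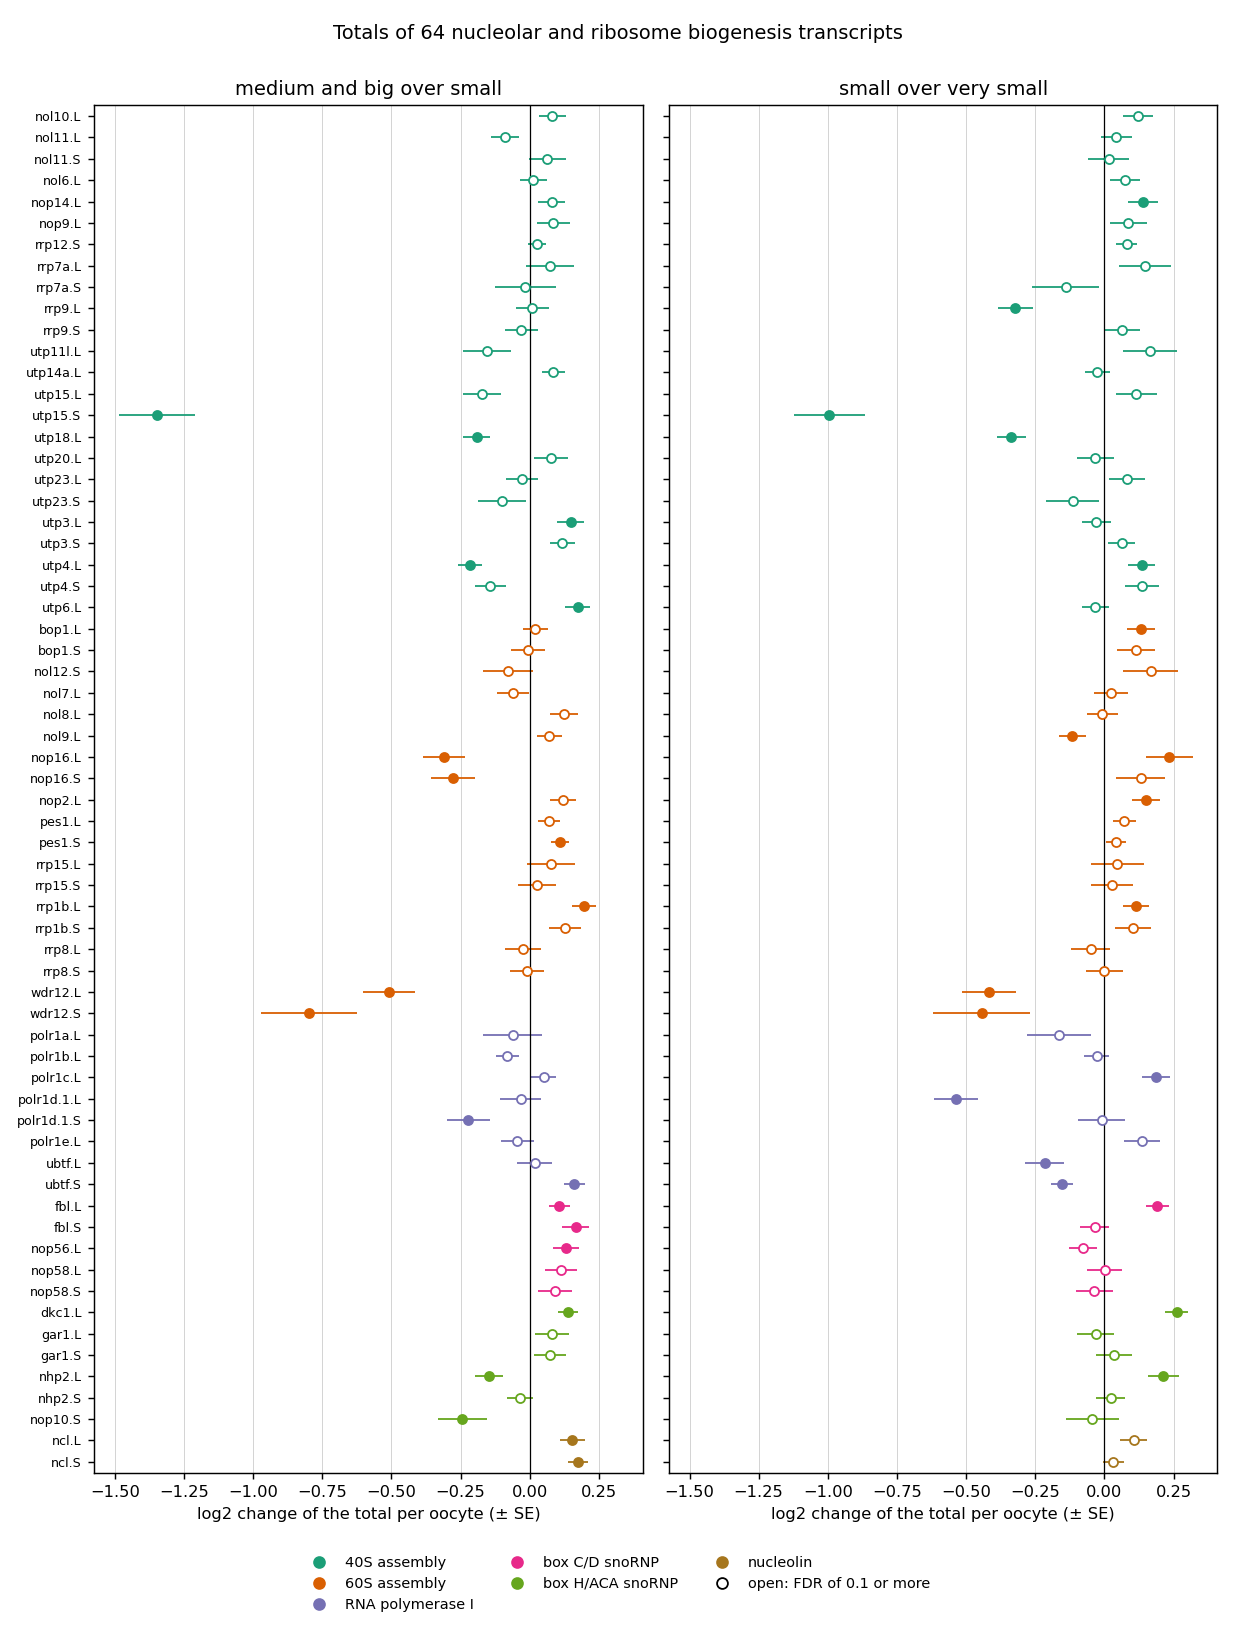
Log2 change ± SE of the summed level for each of the 64 transcripts tested, in medium and big over small oocytes (left) and small over very small oocytes (right), coloured by role. Filled points passed an FDR under 0.1 and open points did not; utp15.S lies farthest to the left in both panels, at -1.35 and -0.995, and most others lie close to 0.

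The 8 transcripts of RNA polymerase I and UBF summed to 499 to 507 CPM in the very small, 473 to 502 CPM in the small, 485 to 494 CPM in the medium and 477 to 490.2 CPM in the big oocytes. UBF (ubtf), the HMG-box protein that binds the ribosomal DNA and activates polymerase I, was alone in this group in having a copy called in both comparisons. The S copy, ubtf.S, had 92.8, 93.1 and 94.2 CPM in the very small, 87.9, 86.1, 84.8, 80.6 and 83.8 CPM in the small, 96.2 and 94.6 CPM in the medium and 94.97 and 91.1 CPM in the big oocytes. It was lower in the small than in the very small oocytes (-0.15 ± 0.04, adjusted p = 0.00926) and higher again in the medium and big than in the small oocytes (0.16 ± 0.04, adjusted p = 0.0165), with no overlap of the oocytes in either comparison. The L copy, ubtf.L, measured 48.9, 50.4 and 51.8 CPM in the very small, 41.1, 41.5, 50.8, 43.4 and 41.7 CPM in the small, 42.8 and 44.3 CPM in the medium and 45.2 and 43.7 CPM in the big oocytes. It was lower in small than in very small oocytes (-0.22 ± 0.07, adjusted p = 0.0252), where small oocyte 3 reached the level of the very small ones, and its change in the medium and big oocytes did not pass (0.02 ± 0.06, adjusted p = 0.892).

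The polymerase subunits named polr1 showed no common direction. Subunits under other symbols (cd3eap, znrd1 and twistnb) were listed with the other ribosome biogenesis genes and are not in this group. The transcript of the largest subunit, polr1a.L, had 59.2, 63.2 and 59.7 CPM in the very small, 42.4, 61.2, 58.1, 47.3 and 65.5 CPM in the small, 56.0 and 51.0 CPM in the medium and 48.8 and 52.8 CPM in the big oocytes, and neither comparison passed (-0.16 ± 0.12, adjusted p = 0.297 for small over very small and -0.06 ± 0.11, adjusted p = 0.755 for medium and big over small). Its 5 small oocytes spread more widely than those of the other classes. A small subunit shared with polymerase III is encoded by polr1d.1.L. Its levels were 20.1, 26.5, 24.3, 23.1 and 23.6 CPM in the small, against 34.4, 33.3 and 33.4 CPM in the very small oocytes. Every small oocyte lay below every very small one (-0.54 ± 0.08, adjusted p = 0.000128), and the call held in 12 of the 12 fits that each left out 1 oocyte (log2 change -0.58 to -0.48). Here and below, the 12 fits include those that left out an oocyte of a class outside the comparison. In such fits mainly the shared spread could change, so they say little on single oocytes of the classes compared. The other shared subunit, polr1c.L, went the other way (0.19 ± 0.05, adjusted p = 0.0104), with 99.2, 103, 89.4, 92.7 and 97.9 CPM in the small and 86.9, 83.7 and 81.0 CPM in the very small oocytes. The copy polr1d.1.S was called lower in the medium and big than in the small oocytes (-0.22 ± 0.08, adjusted p = 0.0877), but only in 2 of the 12 fits that each left out 1 oocyte (log2 change -0.30 to -0.15). Neither polr1b.L (the second-largest subunit) nor polr1e.L passed in a comparison of totals.

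The box C/D snoRNP transcripts summed to 720.4 to 729.9 CPM in the medium and 692 to 731 CPM in the big oocytes, against 639 to 692 CPM in the small, and all 5 tested had a positive change (0.09 to 0.17 on the log2 scale), 3 of which passed (background 6.18% higher). Fibrillarin (fbl) is the methyltransferase of the particle. The S copy, fbl.S, had 149, 161 and 160.2 CPM in the very small, 148, 152, 169, 154 and 146 CPM in the small, 173 and 179 CPM in the medium and 174 and 163 CPM in the big oocytes. Only small oocyte 3 overlapped the medium and big oocytes. Its section B library, which stood apart, had 235.6 CPM of fbl.S, against 140.5 to 150.8 CPM in section B of the other small oocytes. The rise in the medium and big over the small oocytes passed (0.17 ± 0.05, adjusted p = 0.0483). This call was lost without medium oocyte 2 (0.16, adjusted p = 0.142) or big oocyte 1 (0.14, adjusted p = 0.15). The L copy, fbl.L, with 116, 118 and 119 CPM in the very small, 129.9, 140.2, 139, 137 and 132 CPM in the small, 144 and 151 CPM in the medium and 139 and 147 CPM in the big oocytes, was higher in small than in very small oocytes (0.19 ± 0.04, adjusted p = 0.00253), where all 5 small oocytes exceeded the 3 very small ones. In the medium and big oocytes the change of fbl.L (0.11 ± 0.04, adjusted p = 0.0861) passed in 2 of the 12 fits that each left out 1 oocyte (log2 change 0.09 to 0.13).

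The scaffold proteins nop56 and nop58 hold the guide RNA and fibrillarin together. The L copy of nop56 was at 194, 184 and 189 CPM in the very small, 182, 174, 199, 169 and 179 CPM in the small, 199 and 201 CPM in the medium and 199 and 188 CPM in the big oocytes, and its change in the medium and big over the small oocytes (0.13 ± 0.05, adjusted p = 0.0971) passed in 1 of the 12 fits that each left out 1 oocyte (log2 change 0.11 to 0.17). Its S copy had 6 to 40 counts per oocyte, and the L copy supplied 99.05% to 99.78% of the pair's counts. Both nop58.L (0.11 ± 0.06, adjusted p = 0.247) and nop58.S (0.09 ± 0.06, adjusted p = 0.369) missed the threshold. In the v10.1 annotation of RefSeq, which is not the v9.1 build of the files and was used for neighbours only, nop56.L, nop58.L, nop58.S, dkc1.L, ncl.L and ncl.S overlap 20 snoRNA genes. A further 10 members overlap other genes: utp4.S, nol8.L, wdr12.L, nop16.L, polr1b.L, bop1.L, bop1.S, fbl.S, nop9.L and utp20.L. Reads of such overlaps could not be assigned here.

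Among the box H/ACA transcripts dkc1.L was called higher in both comparisons. It encodes dyskerin, the pseudouridine synthase, and had 225, 239 and 238 CPM in the very small, 298, 279, 274, 287 and 275 CPM in the small, 301 and 316 CPM in the medium and 315 and 305 CPM in the big oocytes. All 5 small oocytes lay above all 3 very small ones (0.26 ± 0.04, adjusted p = 0.000205), and all 4 medium and big oocytes lay above the small ones (0.14 ± 0.04, adjusted p = 0.0328). The first call held in 12 of the 12 fits that each left out 1 oocyte (log2 change 0.23 to 0.28), whereas the second was lost without medium oocyte 2 (0.12, adjusted p = 0.131) or big oocyte 1 (0.12, adjusted p = 0.109). The other copy of dkc1 was not analysed here. A core protein gene of the same particle, nhp2.L, was also higher in small than in very small oocytes (0.21 ± 0.06, adjusted p = 0.00871), with 108, 102, 103, 106 and 99.99 CPM in the small and 86.4, 90.7 and 89.2 CPM in the very small oocytes. The medium oocytes had 101 and 84.2 CPM and the big 96.2 and 92.4 CPM, and the lower level of nhp2.L than in the small oocytes (-0.15 ± 0.05, adjusted p = 0.0843) passed in only 3 of the 12 fits that each left out 1 oocyte (log2 change -0.21 to -0.08). In neither comparison did nhp2.S, gar1.L or gar1.S pass. The transcript of the smallest core protein, nop10.S, was called lower in the medium and big oocytes (-0.24 ± 0.09, adjusted p = 0.0982), a call that held in 2 of the 12 fits that each left out 1 oocyte (log2 change -0.29 to -0.19) and not without section B of small oocyte 3 (-0.20, adjusted p = 0.155).

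Nucleolin (ncl) is an abundant RNA-binding protein of the nucleolus. The S copy, ncl.S, had 435, 449 and 469 CPM in the very small, 471, 471, 476, 462 and 444 CPM in the small, 557 and 531 CPM in the medium and 499 and 503 CPM in the big oocytes. The 4 medium and big oocytes lay above all 5 small ones (0.17 ± 0.04, adjusted p = 0.00922), and this held in 12 of the 12 fits that each left out 1 oocyte (log2 change 0.16 to 0.20). The L copy, ncl.L, had 535, 583 and 588 CPM in the very small, 634, 628, 647, 609.8 and 565 CPM in the small, 718 and 696 CPM in the medium and 675 and 645 CPM in the big oocytes. Its rise was of like size (0.15 ± 0.05, adjusted p = 0.0493), with 1 big oocyte inside the range of the small ones, and was lost without small oocyte 4 (0.15, adjusted p = 0.107), medium oocyte 1 (0.14, adjusted p = 0.127) or big oocyte 1 (0.14, adjusted p = 0.143). Section B of small oocyte 3, the library that stood apart, had 1118 CPM of ncl.L, against 553.7 to 632.9 CPM in section B of the other small oocytes. Leaving it out lowers the level of the small oocytes. The larger change of ncl.L then found (0.23, adjusted p = 0.0396) follows from that choice and is no support for the rise. Between small and very small oocytes neither copy passed (0.11 for ncl.L and 0.03 for ncl.S).

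**Figure D2:**
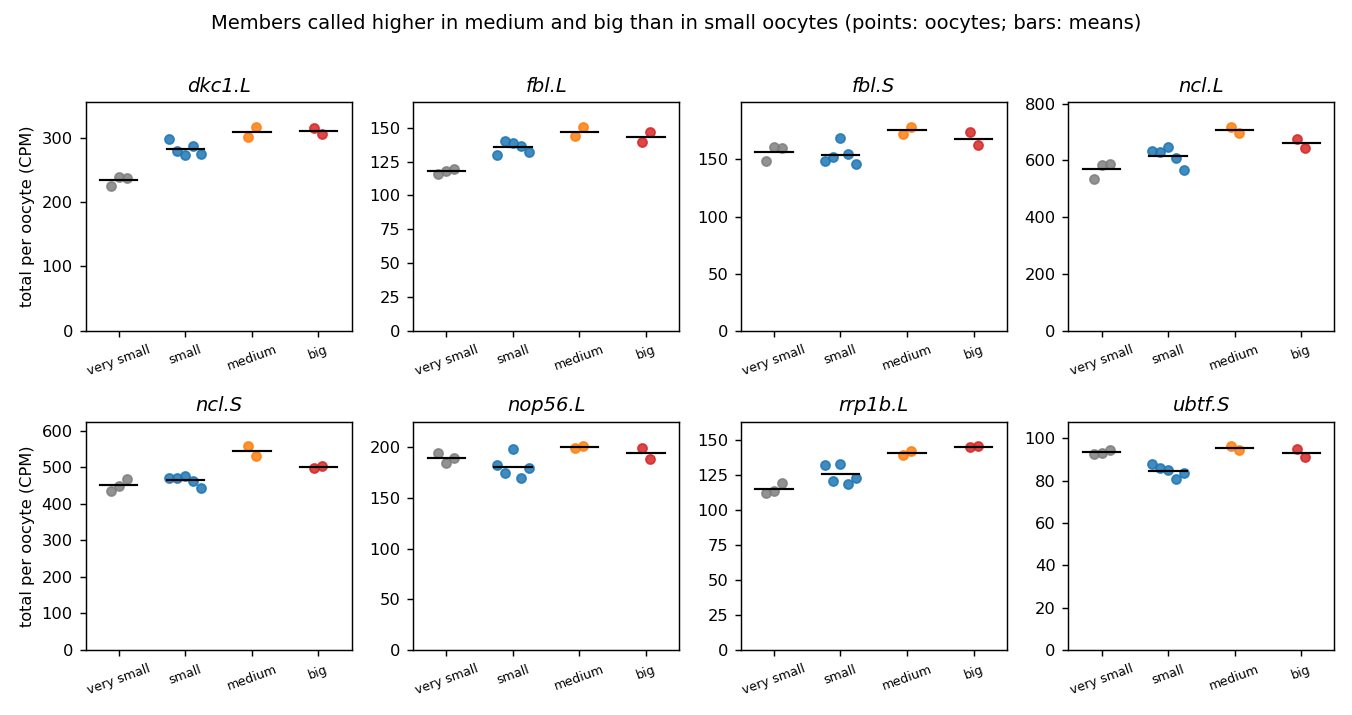
Level in CPM of 8 transcripts in each oocyte (points) of the 4 size classes with the class mean (bars), from very small to big: dkc1.L, fbl.L, fbl.S, ncl.L, ncl.S, nop56.L, rrp1b.L and ubtf.S. For dkc1.L, ncl.S, rrp1b.L and ubtf.S all medium and big oocytes lie above all small ones, while for fbl.L, fbl.S, ncl.L and nop56.L the classes overlap.

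The 40S assembly transcripts summed to 1670.4 to 1709.6 CPM in the very small, 1704 to 1758 CPM in the small, 1710.2 to 1746 CPM in the medium and 1728 to 1729.6 CPM in the big oocytes, and 5 of 24 (20.8%) passed in each comparison (2 higher and 3 lower both times). The background was 43.2% between small and very small and 16.4% between the medium and big and the small oocytes. The steepest change of any member was that of utp15.S. Utp15 belongs to the UtpA (t-UTP) subcomplex, which in yeast and human cells is the first to bind the nascent rRNA precursor. This S copy had 40.1, 32.7 and 33.0 CPM in the very small, 14.4, 15.5, 17.2, 19.4 and 22.4 CPM in the small, 8.69 and 6.66 CPM in the medium and 6.26 and 6.48 CPM in the big oocytes, with 469 to 741 counts per very small and 110 to 155 counts per medium or big oocyte. In every class all oocytes lay below those of the next smaller class, though big against medium oocytes did not pass (-0.25 ± 0.22, adjusted p = 1). The log2 change was -0.995 ± 0.13, adjusted p = 3.76e-05, for small over very small oocytes. For medium and big over small oocytes it was -1.35 ± 0.14, adjusted p = 0.000198. Both passed in all 12 fits that left out 1 oocyte. The L copy, utp15.L, with 89.8, 79.0 and 82.5 CPM in the very small, 87.3, 85.1, 106, 91.1 and 87.9 CPM in the small, 85.6 and 74.6 CPM in the medium and 79.5 and 83.4 CPM in the big oocytes, passed in neither comparison (0.12 ± 0.08, adjusted p = 0.258 and -0.17 ± 0.07, adjusted p = 0.13).

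Its partner Utp4 (cirhin) showed another course. The L copy, utp4.L, had 59.3, 57.0 and 57.3 CPM in the very small, 66.4, 62.1, 64.7, 61.1 and 65.8 CPM in the small, 56.8 and 52.3 CPM in the medium and 55.8 and 54.9 CPM in the big oocytes, higher in the small than in the very small oocytes (0.13 ± 0.05, adjusted p = 0.0429) and lower in the medium and big than in the small ones (-0.21 ± 0.04, adjusted p = 0.00904). The small oocytes lay apart from both other groups. The first of these calls was lost without very small oocyte 2 (0.12, adjusted p = 0.139) or 3 (0.12, adjusted p = 0.127), and the second passed in all 12 fits. The S copy, utp4.S, with 26.4, 24.5 and 22.8 CPM in the very small, 27.6, 28.6, 26.5, 26.1 and 27.5 CPM in the small, 24.3 and 23.0 CPM in the medium and 25.1 and 25.9 CPM in the big oocytes, had the same signs (0.14 and -0.14) and did not pass. Transcripts of nol11, another member of this subcomplex, passed in neither comparison.

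A protein of the UtpB subcomplex is encoded by utp18.L, which had 82.8, 77.8 and 86.4 CPM in the very small, 66.04, 65.1, 68.8, 62.8 and 65.8 CPM in the small, 61.4 and 54.6 CPM in the medium and 56.4 and 56.7 CPM in the big oocytes. It was lower by 0.34 ± 0.05 on the log2 scale in small than in very small oocytes (adjusted p = 0.000207), where the females differ. In medium and big against small oocytes it was lower by 0.19 ± 0.05 (adjusted p = 0.0276). The classes did not overlap in either comparison. The second call was lost without medium oocyte 2 (-0.14, adjusted p = 0.14). Another UtpB member, utp6.L, was higher in the medium and big than in the small oocytes (0.17 ± 0.04, adjusted p = 0.0282), with 64.5 and 63.0 CPM in the medium and 60.9 and 63.8 CPM in the big, against 57.5, 54.5, 51.8, 60.1 and 56.6 CPM in the small oocytes. Rrp9 is a protein of the U3 snoRNP. Its L copy, rrp9.L, had 38.2, 34.5, 35.5, 36.4 and 33.0 CPM in the small, against 43.1, 45.4 and 43.7 CPM in the very small oocytes (-0.32 ± 0.06, adjusted p = 0.00142), and rrp9.S did not pass (0.06 ± 0.07, adjusted p = 0.493). The call of nop14.L as higher in small than in very small oocytes (0.14 ± 0.05, adjusted p = 0.0563) was lost without section B of small oocyte 3 (0.10, adjusted p = 0.177) and held in 8 of the 12 fits that each left out 1 oocyte (log2 change 0.12 to 0.17). That of utp3.L as higher in the medium and big than in the small oocytes (0.15 ± 0.05, adjusted p = 0.0674) held in 7 of the 12 fits that each left out 1 oocyte (log2 change 0.12 to 0.18). The other 40S assembly members, among them utp20.L, utp14a.L, nol6.L, nol10.L and rrp12.S, passed in neither comparison.

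The 60S assembly transcripts summed to 1253 to 1302 CPM in the very small, 1289 to 1388 CPM in the small, 1334 to 1395 CPM in the medium and 1377 to 1419 CPM in the big oocytes. Pes1, Bop1 and Wdr12 form the PeBoW complex, which is needed to process the precursor of the large subunit rRNA. Both copies of wdr12 were lower in the small than in the very small oocytes, where the females differ. They were lower again in the medium and big oocytes. The L copy, wdr12.L, had 13.9, 14.0 and 13.0 CPM in the very small, 10.11, 11.2, 9.40, 10.2 and 10.8 CPM in the small, 8.00 and 6.06 CPM in the medium and 7.68 and 7.30 CPM in the big oocytes, with no overlap between very small, small and the larger oocytes (-0.42 ± 0.10, adjusted p = 0.00466, and -0.51 ± 0.10, adjusted p = 0.00569). The S copy, wdr12.S, had 7.15, 5.87 and 7.68 CPM in the very small, 4.11, 5.12, 6.42, 4.83 and 5.06 CPM in the small, 3.36 and 2.11 CPM in the medium and 3.07 and 3.19 CPM in the big oocytes, all medium and big oocytes below all small ones (-0.80 ± 0.17, adjusted p = 0.0123), whereas small and very small oocytes overlapped (-0.44 ± 0.18, adjusted p = 0.0647). This last call was lost without very small oocyte 1 or 3 or small oocyte 1 or 4 (adjusted p = 0.166, 0.206, 0.128 and 0.114).

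Neither partner of Wdr12 was called lower in a comparison. For pes1.L the levels were 149, 145 and 152 CPM in the very small, 162, 151, 165, 158 and 151 CPM in the small, 165 and 159 CPM in the medium and 165 and 169 CPM in the big oocytes. It passed in neither comparison (log2 change 0.07 in small over very small and 0.07 in medium and big over small oocytes), while pes1.S was higher in the medium and big than in the small oocytes (0.11 ± 0.03, adjusted p = 0.0495), with no overlap. Without medium oocyte 1 or big oocyte 2 that call was lost (0.10, adjusted p = 0.135, and 0.10, adjusted p = 0.125). The third partner, bop1.L, with 82.9, 82.9 and 87.3 CPM in the very small, 97.03, 93.8, 98.0, 86.7 and 90.7 CPM in the small, 89.5 and 95.6 CPM in the medium and 96.96 and 94.1 CPM in the big oocytes, was called higher in small than in very small oocytes (0.13 ± 0.05, adjusted p = 0.0533) and not without very small oocyte 1 or 2 or small oocyte 1 (adjusted p = 0.164, 0.162 and 0.103). As a ratio of both copies summed, wdr12 over pes1 was lower by 0.48 on the log2 scale in the small than in the very small oocytes and by 0.69 in the medium and big than in the small oocytes. The ratio bop1 over pes1 differed by 0.07 and -0.08. These ratios were chosen after the values had been seen and are given without a test.

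**Figure D3:**
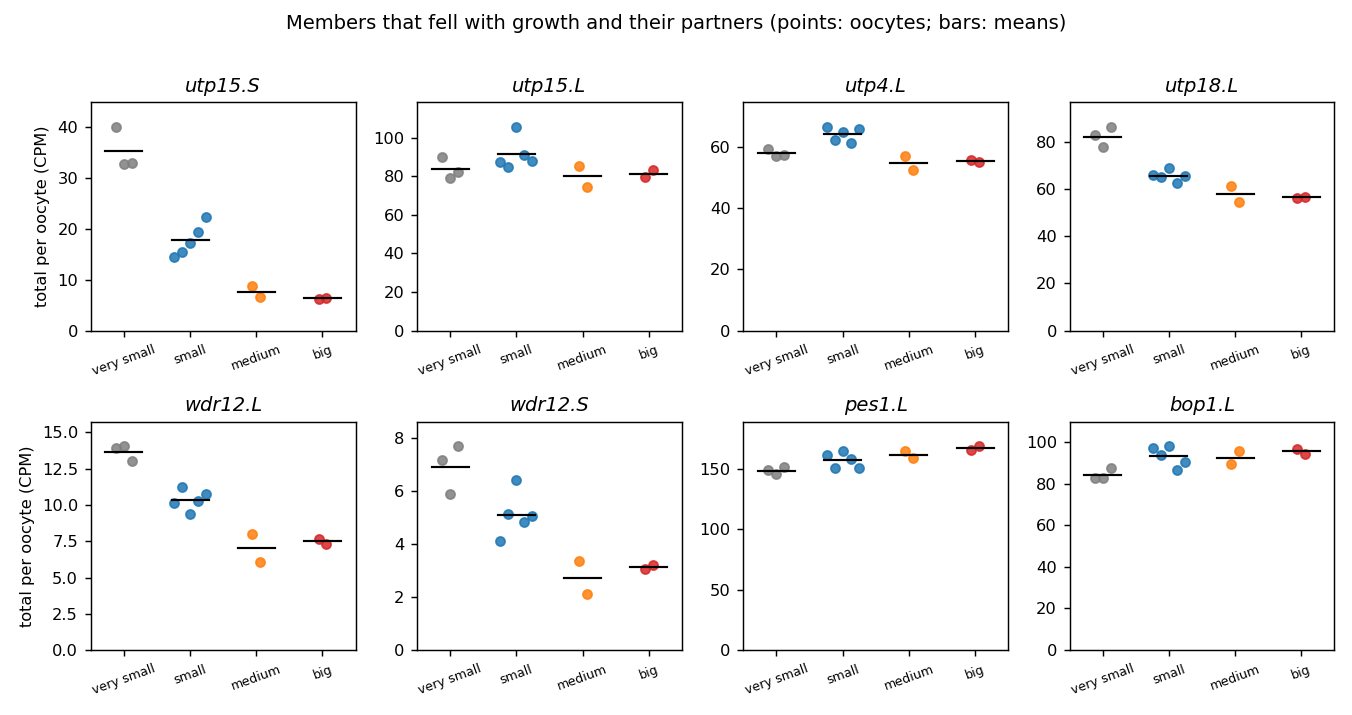
Level in CPM of 8 transcripts in each oocyte (points) from very small to big oocytes, with bars at the class means: utp15.S beside utp15.L, utp4.L, utp18.L, and wdr12.L and wdr12.S beside pes1.L and bop1.L. The points of utp15.S lie at 32.7 to 40.1 CPM in the very small and 6.26 to 8.69 CPM in the medium and big oocytes, whereas those of utp15.L overlap between classes.

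Among the other 60S factors, rrp1b.L was higher in the medium and big than in the small oocytes (0.20 ± 0.04, adjusted p = 0.014), with 139 and 142 CPM in the medium and 145 and 145 CPM in the big, against 132, 121, 133, 118 and 123 CPM in the small oocytes, and this held in 12 of the 12 fits that each left out 1 oocyte (log2 change 0.17 to 0.22). For small over very small oocytes, its call (0.11 ± 0.05, adjusted p = 0.0823) held in 5 of the 12 fits that each left out 1 oocyte (log2 change 0.09 to 0.14). The L copy of nop16 had 16.9, 19.998 and 19.0 CPM in the very small, 20.9, 22.5, 20.5, 24.4 and 22.3 CPM in the small, 18.3 and 15.5 CPM in the medium and 19.5 and 18.1 CPM in the big oocytes. It was higher in small than in very small oocytes (0.23 ± 0.08, adjusted p = 0.0443) and lower in the medium and big than in the small oocytes (-0.31 ± 0.08, adjusted p = 0.0231). The S copy, nop16.S, was lower in the medium and big oocytes as well (-0.28 ± 0.08, adjusted p = 0.0465). Without very small oocyte 1 the first nop16.L call was lost (0.17, adjusted p = 0.207), and without medium oocyte 2 the second (-0.25, adjusted p = 0.121). That of nop16.S was lost without small oocyte 4, medium oocyte 2 or big oocyte 2 (adjusted p = 0.112, 0.187 and 0.184). The rRNA cytosine methyltransferase transcript nop2.L was called higher in small than in very small oocytes (0.15 ± 0.05, adjusted p = 0.0382), but not without section B of small oocyte 3 (0.09, adjusted p = 0.357) or without very small oocyte 1 (0.13, adjusted p = 0.135). A polynucleotide kinase of 60S maturation, nol9.L, was called lower in small oocytes (-0.12 ± 0.05, adjusted p = 0.0797), in 7 of the 12 fits that each left out 1 oocyte (log2 change -0.14 to -0.09).

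Between big and medium oocytes no member passed, and neither did any of the 19059 transcripts in edgeR's test (2 oocytes against 2, smallest adjusted p = 0.111, background 0%). At an unadjusted p under 0.05 there were 686 transcripts and 1 member, and DESeq2 called 10 transcripts and 0 members. All 64 members differed by less than 1.2-fold between these classes.

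Some of the calls named above ended under another processing. With sections B to E alone, which every oocyte has, these were nop14.L, nop16.L, rrp1b.L and utp4.L (adjusted p = 0.114, 0.132, 0.108 and 0.142) between small and very small oocytes. Between the medium and big and the small oocytes they were fbl.S, ncl.L, nop10.S, polr1d.1.S and utp3.L (adjusted p = 0.106, 0.125, 0.329, 0.291 and 0.122). With no filter on low counts nol9.L was lost in the first comparison (adjusted p = 0.169), and fbl.L, nop10.S, nop56.L, pes1.S, polr1d.1.S and utp3.L (adjusted p = 0.205, 0.106, 0.155, 0.16, 0.143 and 0.14) in the second. With DESeq2 the calls of nop10.S and polr1d.1.S (adjusted p = 0.104 and 0.135) ended, and with sections scaled to equal depth those of nop10.S and polr1d.1.S (adjusted p = 0.123 and 0.19) and of nol9.L (adjusted p = 0.129). Other scalings ended those of nop10.S (adjusted p = 0.105) and nop56.L (adjusted p = 0.101).

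The question whether the L and S copies of a gene keep their proportion was tested on the log2 ratio of their counts with limma over 5455 pairs, of which 21 were nucleolar. The ratio changed for 6 of the 21 between small and very small oocytes (4 with a higher L over S ratio and 2 with a lower one, background 47.5% with 24.5% and 23.1%) and for 1 of 21 between the medium and big and the small oocytes (background 7.74%). That 1 pair, with a higher ratio (background 3.87% higher and 3.87% lower), was utp15. Its L copy made up 70.4% ± 1.15 of the pair's counts in the very small (SD, n = 3), 83.7% ± 2.66 in the small (SD, n = 5), 91.3% ± 0.720 in the medium and 92.8% ± 0.0644 in the big oocytes (SD, n = 2 each). By oocyte the L share was 69.2, 70.7 and 71.4% in the very small, 85.8, 84.6, 86.0, 82.4 and 79.7% in the small, 90.8 and 91.8% in the medium and 92.7 and 92.8% in the big oocytes. No classes overlapped. The log2 L over S ratio of utp15 was higher by 1.124 ± 0.14, adjusted p = 0.000125, in small than in very small oocytes, where the females differ. In medium and big over small oocytes it rose by 1.15 ± 0.13, adjusted p = 0.00272. Both changes held in all 12 fits that left out 1 oocyte. The test uses the same counts as the totals of utp15.S and is not a second line of evidence.

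The other pairs called were all called between small and very small oocytes, where the females differ. The L share of rrp9 was 31.7, 33.3, 29.8, 31.5 and 31.1% in the small, against 36.3, 38.3 and 37.7% in the very small oocytes (log2 ratio -0.38 ± 0.07, adjusted p = 0.0016). For polr1d.1 it was 56.2, 63.8, 61.4, 60.2 and 63.8% in the small and 70.1, 69.4 and 68.4% in the very small oocytes (-0.52 ± 0.13, adjusted p = 0.00749). The share of fbl.L was higher in small oocytes (0.23 ± 0.05, adjusted p = 0.00626), with 46.8% ± 1.10 (SD, n = 5), against 42.9% ± 0.689 in the very small oocytes (SD, n = 3). In these 3 pairs the classes did not overlap. The rrp7a pair was called too (0.28 ± 0.10, adjusted p = 0.0405), but not without very small oocyte 2 or 3 (adjusted p = 0.126 and 0.163) and not with sections B to E alone (adjusted p = 0.109). The sixth pair, nhp2 (0.19 ± 0.08, adjusted p = 0.0752), was lost without section B of small oocyte 3 (0.16, adjusted p = 0.155) and held in 7 of the 12 fits that each left out 1 oocyte (log2 change 0.14 to 0.22). Outside the tested pairs, counts of rrp12 came almost wholly from its S copy, with an L share of at most 0.267%. In the v10.1 annotation rrp12.L and nop56.S had no match by name, whereas rrp12.S and nop56.L did. Such a share may therefore reflect the gene models of the v9.1 build, which was not tested. Also without a match were utp3.L, utp3.S and nhp2.L, which passed the filter. How reads that match both copies had been counted is not given in the sources used here, so that the division between near-identical copies is uncertain.

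**Figure D4:**
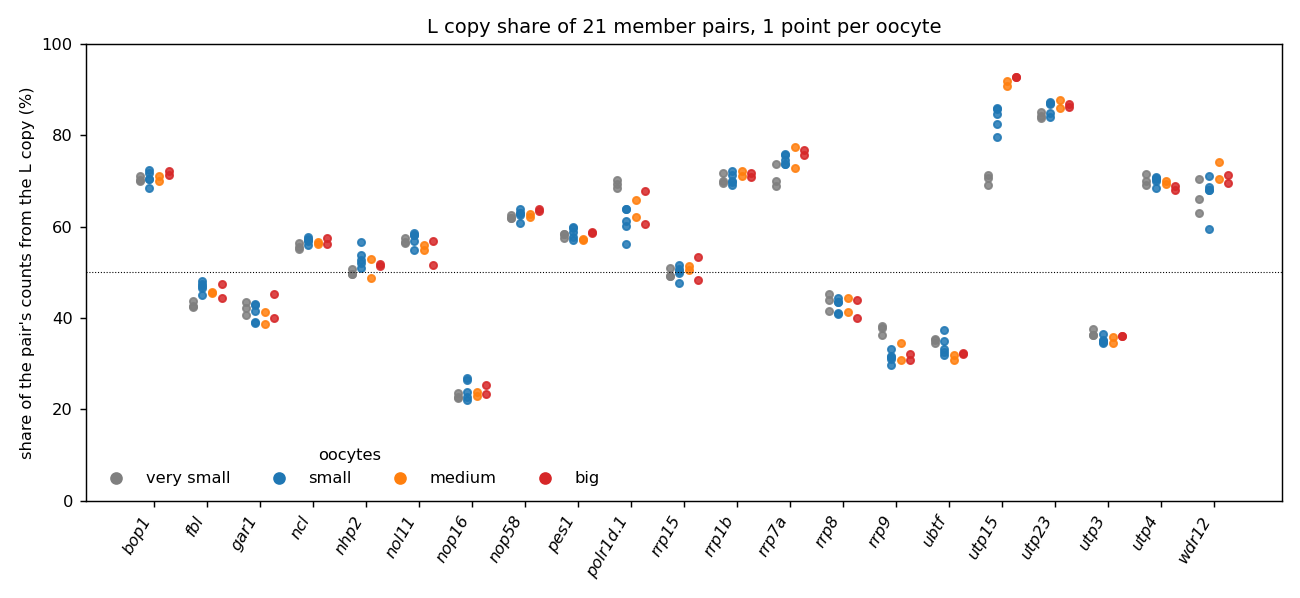
Share of the L copy in the counts of each of the 21 L and S pairs tested, in percent, with 1 point per oocyte coloured by size class and a dotted line at 50%. The utp15 points spread from 69.2% in the very small to 92.8% in the big oocytes, while the points of most other pairs lie closer together.

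Along the A-V axis the 5 sections were compared within each class. Levels were scaled within each section library and are relative to the other RNA of that section. Section differences and shares are therefore not amounts of RNA. A test for any difference between the 5 sections, with the oocyte as block, called 1 of 64 members in very small oocytes (nop16.S, adjusted p = 0.0722, background 5.85%), 4 in small oocytes (nhp2.L, nop10.S, polr1e.L and utp4.S, background 8.59%), 1 in medium oocytes (rrp7a.L, adjusted p = 0.00335, background 8.25%) and 3 in big oocytes (polr1a.L, rrp7a.L and utp4.S, background 9.58%). The directions were read from 2 gradients. The animal gradient sets section A against the mean of C, D and E on the log2 scale. The vegetal gradient sets E against the mean of A, B and C. Both gradients hold sections A and E, so the 2 gradients of a transcript are not independent. In the medium and big oocytes together, 14 of 64 members passed for the animal gradient (8 higher in A, 6 lower, background 24.7% with 12.9% and 11.7%) and 12 for the vegetal gradient (5 higher in E, 7 lower, background 21.3% with 11.2% and 10.2%). In small oocytes 7 passed for the animal gradient (background 15.9%), 6 higher in A (8.24%) and 1 lower (7.67%). For the vegetal gradient 2 passed (background 7.4%), 0 higher in E (5.01%) and 2 lower (2.39%). In very small oocytes 4 passed for the animal gradient (background 5.37%), 4 higher in A (2.67%) and 0 lower (2.7%). For the vegetal gradient 5 passed (background 5.7%), 1 higher in E (3.72%) and 4 lower (1.98%). At least 1 of the gradients was called for 8 of 64 members in very small (background 9.19%), 7 in small (background 18.3%) and 18 in medium and big oocytes (background 32.2%). The median gradients of the members in the medium and big oocytes were -0.02 (animal) and -0.04 (vegetal), against 0.0021 and -0.02 for all transcripts.

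The steepest vegetal gradient of the members in medium and big oocytes was that of utp4.S (-0.73 ± 0.15, adjusted p = 0.00056). Section A held 24.8 and 29.1% in the medium and 25.7 and 29.6% in the big oocytes of its level summed over sections, and section E held 6.59 and 15.6% in the medium and 11.9 and 15.5% in the big oocytes, where 20% each would be even (shares of CPM, with each section library weighted equally). The lowest share, 6.59%, came from section E of medium oocyte 1, the library with the fewest counts of all (1014060), and rests on few reads. Every one of the 4 oocytes had a higher share of utp4.S in A than in E (0.65 ± 0.13, adjusted p = 0.000358 for the animal gradient), at 420 to 567 counts per oocyte. In small oocytes the shares were 21.9, 22.6, 25.1, 22.6 and 20.8% in A and 17.4, 16.1, 18.2, 15.9 and 18.6% in E (animal gradient 0.27 ± 0.08, adjusted p = 0.0214). The L copy, utp4.L, did not pass in the medium and big oocytes (0.00 ± 0.08, adjusted p = 1 and -0.17 ± 0.09, adjusted p = 0.242), with 20.6 and 19.6% in the medium and 18.1 and 22.2% in the big oocytes in A. The difference between the copies was not tested. In the v10.1 annotation utp4.S overlaps a pseudogene, whose reads could not be assigned here, and utp4.L overlaps no other gene.

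The steepest animal gradient of the members was that of rrp7a.L, a 40S assembly factor that works with Nol6 (0.76 ± 0.12, adjusted p = 1.67e-05). Its share in A was 30.1 and 32.8% in the medium and 20.02 and 30.8% in the big oocytes. Big oocyte 1, at an even share in A, was the exception. In small oocytes section A held 23.1, 20.2, 16.9, 19.0 and 21.6%, and section B of small oocyte 3, the library that stood apart, held 36.6%. The gradient of nol9.L was smaller. It had 23.6 and 21.9% in the medium and 23.1 and 23.5% in the big oocytes in A and 16.5 and 16.6% in the medium and 15.5 and 17.5% in the big oocytes in E (animal 0.33 ± 0.07, adjusted p = 0.000328, and vegetal -0.39 ± 0.07, adjusted p = 0.000118). In A nhp2.L was higher (0.31 ± 0.08, adjusted p = 0.00392) and nol11.S was lower in E (-0.48 ± 0.11, adjusted p = 0.00166). The share of nol11.S in E was 17.4 and 13.7% in the medium and 13.3 and 17.0% in the big oocytes. Each of these calls of utp4.S, rrp7a.L, nol9.L, nhp2.L and nol11.S in the medium and big oocytes held without any 1 of the 4 oocytes, whereas the animal gradient of utp4.S in small oocytes was lost without small oocyte 4 (0.25, adjusted p = 0.169). A further 4 calls towards A, those of utp11l.L (0.37 ± 0.11, adjusted p = 0.0142), nol12.S (0.33 ± 0.11, adjusted p = 0.0279), nop16.S (0.32 ± 0.13, adjusted p = 0.0861) and nol8.L (0.26 ± 0.08, adjusted p = 0.0166), were each lost without big oocyte 2, and all but the first also without medium oocyte 2. Lower in E were also rrp7a.L (-0.49 ± 0.14, adjusted p = 0.0107), nol8.L (-0.26 ± 0.08, adjusted p = 0.0237), nhp2.L (-0.24 ± 0.08, adjusted p = 0.0442) and polr1b.L (-0.22 ± 0.08, adjusted p = 0.061). Of these, rrp7a.L was lost without big oocyte 2, nol8.L without medium oocyte 1, nhp2.L without either of these oocytes, and polr1b.L in 3 of 4 fits.

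The 6 transcripts called lower in section A were polr1a.L, both fibrillarin copies, nop56.L, ncl.S and dkc1.L. The other nucleolin copy, ncl.L, did not pass (-0.10 ± 0.07, adjusted p = 0.355). The share of polr1a.L in A was 17.3 and 11.0% in the medium and 15.2 and 15.3% in the big oocytes (-0.51 ± 0.12, adjusted p = 0.00255), all 4 under an even share, and fbl.S had 17.6 and 18.1% in the medium and 16.9 and 17.1% in the big oocytes (-0.27 ± 0.07, adjusted p = 0.00961). Both held without any 1 oocyte. The call of fbl.L (-0.27 ± 0.07, adjusted p = 0.00654) was lost without big oocyte 2 (-0.22, adjusted p = 0.111). That of nop56.L (-0.25 ± 0.07, adjusted p = 0.0173) was lost without medium oocyte 2 or big oocyte 2 (adjusted p = 0.113 and 0.148). Those of ncl.S (-0.20 ± 0.07, adjusted p = 0.0527) and dkc1.L (-0.16 ± 0.07, adjusted p = 0.0875) each held in 1 of 4 fits that left out an oocyte. On the vegetal side, E was higher than the mean of A, B and C for dkc1.L (0.22 ± 0.07, adjusted p = 0.0142), fbl.S (0.21 ± 0.07, adjusted p = 0.046), ncl.S (0.21 ± 0.07, adjusted p = 0.0337), rrp9.L (0.32 ± 0.11, adjusted p = 0.0396) and polr1d.1.S (0.38 ± 0.15, adjusted p = 0.0788). A low level in A also raises this gradient, and dkc1.L, fbl.S and ncl.S were called lower in A, so their vegetal calls are not a separate finding. Of the calls higher in E, that of dkc1.L was lost without big oocyte 1 only (0.20, adjusted p = 0.113), that of polr1d.1.S in every such fit, fbl.S in 3 of 4, and ncl.S and rrp9.L in 2 of 4. The other copies rrp9.S and polr1d.1.L did not pass. Their mean shares in E of the medium and of the big oocytes were 19.6 and 21.2% for rrp9.S and 24.8 and 18.5% for polr1d.1.L.

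In very small oocytes dkc1.L was higher in A (animal gradient 0.21 ± 0.05, adjusted p = 0.0181), as were ncl.L (0.15 ± 0.05, adjusted p = 0.0865), rrp7a.S (0.41 ± 0.13, adjusted p = 0.0677) and rrp8.S (0.28 ± 0.09, adjusted p = 0.0761), each lost without very small oocyte 2 or 3. Section A there rests on 2 oocytes, and the difference of dkc1.L from the medium and big oocytes was not tested. Lower in E of the very small oocytes were utp23.S (-0.63 ± 0.21, adjusted p = 0.0948), nop16.S (-0.40 ± 0.10, adjusted p = 0.00815), nol12.S (-0.28 ± 0.08, adjusted p = 0.0207) and ncl.L (-0.15 ± 0.05, adjusted p = 0.0628), and nop9.L was higher (0.24 ± 0.08, adjusted p = 0.0911). All 5 calls were lost without very small oocyte 3. Small oocytes had their steepest called gradient in nop10.S (0.39 ± 0.11, adjusted p = 0.0251), utp11l.L (0.38 ± 0.10, adjusted p = 0.0183) and polr1e.L (0.29 ± 0.07, adjusted p = 0.00524), and 0 of 7 members with a gradient remained without small oocyte 4. Without section B of small oocyte 3 there were 11 members with a gradient in small oocytes, against 7 with it. The share of all transcripts called without that library is not given here, so the 11 cannot be set against a background. For the animal gradient 7 were then higher and 4 lower in A, with fbl.S (-0.23 ± 0.07, adjusted p = 0.0311), ncl.S (-0.18 ± 0.07, adjusted p = 0.0578) and nol8.L (-0.16 ± 0.06, adjusted p = 0.0859) newly called lower and nop16.S (0.34 ± 0.13, adjusted p = 0.0613) newly called higher. The sign of nol8.L there was opposite to its call in the medium and big oocytes (0.26). With no filter on low counts the small-oocyte calls of nhp2.L, utp4.S, utp4.L and utp20.L were lost, and without the block those of utp4.L and utp20.L. In the medium and big oocytes the vegetal calls of polr1b.L and polr1d.1.S were lost with no filter, and those of polr1d.1.S and rrp9.L without the block. In the very small oocytes the calls of ncl.L, nop9.L, utp23.S and rrp8.S were lost without the block, and those of nop9.L and rrp8.S also with no filter.

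**Figure D5:**
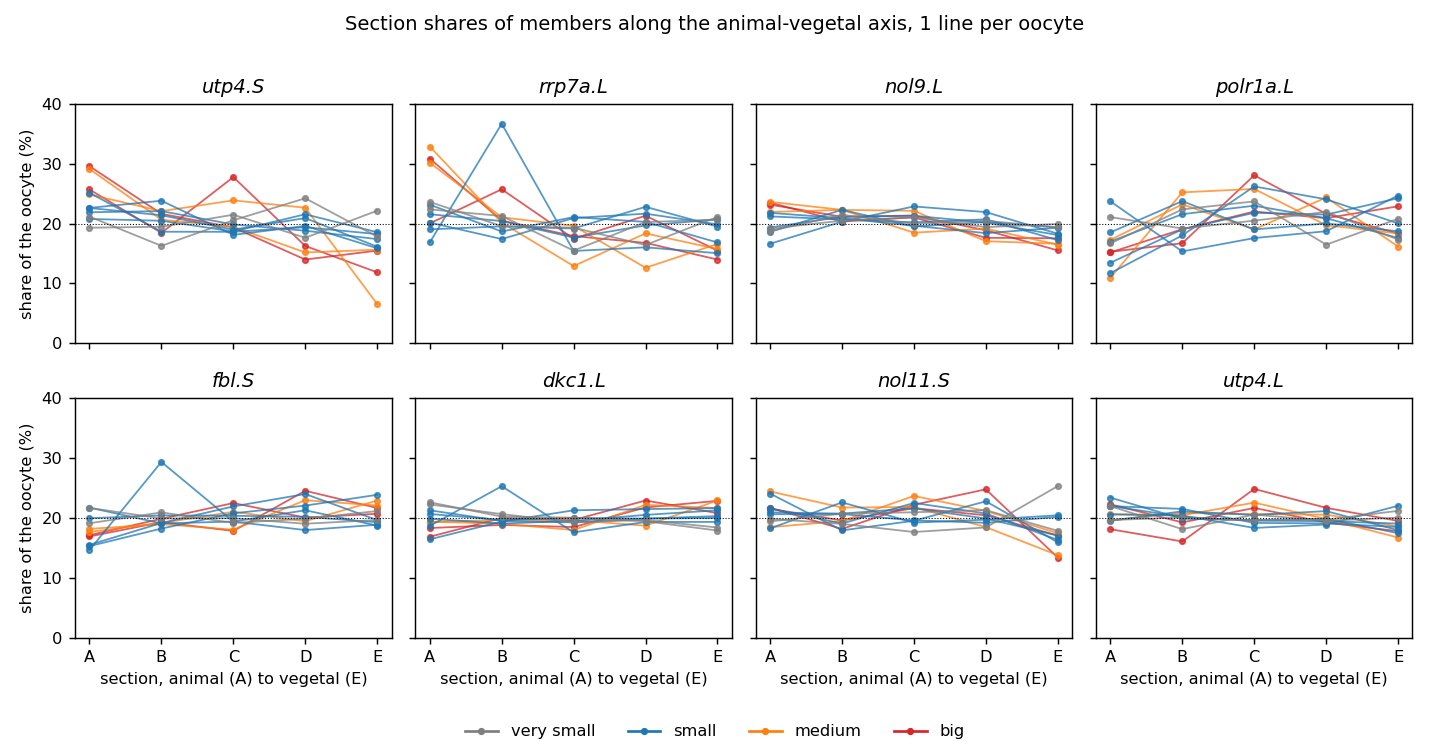
Share of each transcript's level in sections A to E, in percent of the sum over sections, with 1 line per oocyte coloured by size class and a dotted line at the even share of 20%: utp4.S, rrp7a.L, nol9.L, polr1a.L, fbl.S, dkc1.L, nol11.S and utp4.L. In section A the medium and big oocytes lie between 24.8% and 29.6% for utp4.S and between 11.0% and 17.3% for polr1a.L, and the line of small oocyte 3 peaks in B for rrp7a.L, at 36.6%.

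Somatic markers were unevenly spread along the same axis. In the medium and big oocytes the stroma and theca markers had section medians of 492, 292, 208, 262 and 619 CPM from A to E, and the granulosa and follicle markers 93.3, 37.5, 31.3, 39.0 and 82.9 CPM. The medians were highest in both pole sections, and their part in the gradients was not tested.

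Whether the profile over sections changed with growth was tested as an interaction, without the oocyte as block as in the study's methods. For the medium and big against the small oocytes edgeR called 0 members (4 at an unadjusted p under 0.05, smallest adjusted p = 0.105 for utp4.S), with a background of 4.98%. DESeq2 called 3 (nol8.L, nol9.L and utp4.S), the fit with the oocyte as block 2 (nol8.L with adjusted p = 0.0408 and nol9.L with 0.0641), and the fit without section B of small oocyte 3 also 2 (rrp7a.L with 0.0592 and utp4.S with 0.09). The shares of all transcripts called in these alternative fits are not given here. The test of a difference between the medium and big and the small oocytes thus depended on the fit for these 4 members, and no other member passed in these fits. For small against very small oocytes 0 members passed in edgeR, 0 had an unadjusted p under 0.05 and DESeq2 called 0 (background 0.425%).

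Other ribosome biogenesis genes, listed by known function outside the symbol rule (such as npm1, the exosome and the DEAD-box helicases) comprised 149 tested transcripts. Between small and very small oocytes 52 passed (34.9%, against 43.2% of all transcripts), 26 higher and 26 lower with a median log2 change of 0.04. Between the medium and big and the small oocytes 24 passed (16.1%, against 16.4% of all), 9 higher and 15 lower with a median of 0.02. Ribosomal proteins are what the machinery assembles. Of 107 cytosolic ribosomal protein transcripts, 41 were lower and 0 higher in the medium and big than in the small oocytes, with a median of -0.17 (background 10.2% lower and 6.18% higher). Their summed level spread from 5659 to 6866 CPM among the small oocytes. Small oocyte 2, at 5659 CPM, lay within the range of the medium and big oocytes (5452 to 5989 CPM). Of the mitochondrial ribosomal protein transcripts 13 of 95 (13.7%) were lower and 0 higher (median -0.13). The nucleolar transcripts had a median of 0.02 there. Along the axis, 51 of 107 cytosolic ribosomal protein transcripts were higher in A of the medium and big oocytes and 0 lower (median animal gradient 0.25, background 12.9% higher and 11.7% lower), against 8 higher and 6 lower of 64 nucleolar transcripts. Subunits of RNA polymerase II passed in 3 of 20 and of polymerase III in 4 of 9 cases between the medium and big and the small oocytes, and the polr1 subunits with UBF in 2 of 8, with a background of 16.4%. The differences between these lists were not tested.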

How the data were processed

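The authors trimmed reads with Trimmomatic, removed rRNA reads with SortMeRNA, aligned with STAR 2.5.2b to *X. laevis* v9.1 and counted reads per transcript with htseq-count. The deposited raw counts were used. The authors' files normalized with DESeq2 were not used. Strand setting and overlap mode are not given in the sources used here. Sections were summed per oocyte, scaled by TMM and tested with edgeR 4.0.16 (quasi-likelihood, stage as factor, 12 oocytes) in R 4.3.3. Sections and gradients were tested with the oocyte as block, profile changes without it, and L over S ratios (0.5 added to each count) with limma 3.58.1. All p-values were adjusted by Benjamini-Hochberg over all transcripts tested. A log2 change is followed by its SE. For the edgeR tests this was approximated as the absolute log2 change divided by the square root of F. DESeq2 1.42.0 served as an alternative.

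The pairing of sections comes from the oocyte: deviations of 2 sections correlated with a median of 0.177 within an oocyte and -0.0875 between oocytes. Libraries of the same section and class (73 pairs) were not duplicates: their chi-square per transcript was 1.39 to 10.5. RefSeq v10.1 matched 62 members by symbol and 1 by synonym. It was used for names and neighbours only, and no sequence was printed. Named members are, per comparison and role, up to 4 with the smallest adjusted p, the 10 largest changes with classes apart, their homeologs, and fbl, ncl, dkc1, polr1a, ubtf, nop56 and nop58. Members that did not pass are named as contrasts. The members and lists were chosen with earlier results of these data known. The tests were tried on simulated counts with changes larger than most of those reported here and no oocyte effect shared between sections. Such counts cannot show how the tests treat changes as small as these. Alternatives were DESeq2, other scalings, no filter, FDR under 0.05, the block or none, sections B to E, each oocyte left out, and, added after seeing the data, leaving out section B of small oocyte 3.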

Additional observations from a re-analysis of the deposited data

Results flagged for a closer look

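In 4 of 64 members, 1 of the 5 small oocytes stood apart from the 4 others by Dixon's criterion at the 95% level, which chance meets in about 1 of 20 groups. Small oocyte 3 had 105.7 CPM of utp15.L, against 85.1 to 91.1 CPM in the other small oocytes, 72.8 CPM of rrp15.S, against 56.4 to 61.1 CPM, and 50.8 CPM of ubtf.L, against 41.1 to 43.4 CPM. Without its section B library, which stood apart in its member counts, these values were 89.0, 60.8 and 44.7 CPM. The exclusion was chosen after seeing the data. Small oocyte 5 had 109.6 CPM of nop2.L, against 122 to 126 CPM in the others. Without that library small oocyte 3 had 98.4 CPM of nop2.L, below small oocyte 5.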

How the results depend on the processing

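Of 91 calls of single members, 33 held under every alternative and with each oocyte left out, and none of the others changed direction in the alternatives run. Between small and very small oocytes 17 members were higher with sections scaled to equal depth before summing (limma), against 10 here, and between the medium and big and the small oocytes 7 were higher with no filter on low counts, against 11. The test of any section difference called 0 members at an FDR under 0.05, 3 with no filter, 0 without the replicate block and 0 with DESeq2 in very small oocytes (1 here). It called 0 at an FDR under 0.05, 7 with no filter and 1 without the block in small (4 here), 3 with no filter in medium (1 here) and 1 with DESeq2 in big oocytes (3 here). Members with a gradient numbered 3 at an FDR under 0.05 and 4 without the block in very small oocytes (8 here), and 11 without section B of small oocyte 3 in small oocytes (7 here). The profile change of the medium and big against the small oocytes called 2 members with the oocyte block, 3 with DESeq2 and 2 without that library (0 here). Without that library the totals gave 9 higher and 10 lower between small and very small oocytes, where 42.4% of all transcripts were called. Between the medium and big and the small oocytes they gave 14 higher and 9 lower, where 17.2% of all were called. That library was singled out for its high member counts, so leaving it out favours members higher in the medium and big oocytes. For the other alternatives the shares of all transcripts called are not given here. Leaving out 1 oocyte at a time gave 6 to 13 members higher and 7 to 10 lower between small and very small oocytes, with 6 higher without very small oocyte 1 or 2. It gave 5 to 15 higher and 4 to 10 lower between the medium and big and the small oocytes, with 5 higher without big oocyte 1 and 4 lower without medium oocyte 2. It gave 23 to 30 for any stage, 0 to 1, 0 to 3, 1 to 3 and 0 to 1 for sections of very small, small, medium and big oocytes, and 0 to 5, 0 to 9 and 11 to 20 for gradients of very small, small, and medium and big oocytes. For the profile change of the medium and big against the small oocytes it gave 0 to 2, and for the L over S ratios 4 to 7 and 1 to 2 pairs. Where a medium or big class was left with 1 oocyte, that oocyte was assumed to vary like those of the other late class. With 2 to 5 oocytes per class, small changes pass or fail with single oocytes, and the section counts rest on few members.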
